A study of Mus musculus with 6 samples.

Results

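The cytochrome P450 family 2 genes were followed in hepatic mRNA of the Pai-1 heterozygote study. Members were all genes whose symbol is Cyp2, a subfamily letter or letters and a number, and 49 of the 24421 genes in the deposited table matched. The RNA-seq libraries came from the livers of 3 WT and 3 Pai-1+/- (labelled PAI-1 heterozygous) C57BL/6 mice, 21 weeks old by the sample labels, fed standard chow without restriction. The study's text gives a slightly lower age than the labels. It describes the animals as male and of the C57BL/6J substrain, and the sample labels give the sex of the WT mice only. Pai-1+/- mice carry 1 inactive copy of the gene for PAI-1, the main rapid inhibitor of the plasminogen activators, in every cell, and they were bred from Pai-1-/- and WT mice, so the heterozygosity is not limited to the liver.

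Levels are given here for the 2 genotypes together, and no difference between the genotypes is reported. The single-library columns of the count table carry animal numbers that match no sample label and name no genotype, and the remaining columns hold the authors' own comparison, which was not used. The value used is the authors' mean normalised count, that is, counts divided by size factors and averaged over the libraries. Because no column of a single library was used, the depth of the libraries and the spread between mice were not computed here, each level is given without an SD, and which neighbouring levels differ beyond that spread was not tested. Whether a level reflects more cells of a type or more RNA per cell cannot be told apart in bulk liver. To compare genes, each mean was divided by the length of the gene's exons in kb, and single genes are compared below on this level per kb unless a count is named. Shares of the whole table are shares of the summed counts.

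Family 2 is the largest P450 family of the mouse. Its enzymes sit in the endoplasmic reticulum membrane, take electrons from P450 reductase or cytochrome b5, and add oxygen to drugs, solvents, steroids, fatty acids and vitamin D. In the liver they carry much of the first phase of xenobiotic metabolism, and several are known for expression in one zone of the lobule or in one sex. Each holds a haem group bound by a cysteine in a short conserved stretch near the end of the protein.

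That stretch was searched as phenylalanine, any 2 residues, glycine, any 3 residues, cysteine, any 1 residue and glycine, in the longest coding sequence of each gene in GENCODE M21. It was found in 46 of 48 members with a coding sequence, and in 0.624% of the 21951 protein-coding genes. The genes with the stretch include 95 whose symbol starts with Cyp, while 100 protein-coding genes have a symbol of Cyp followed by a digit. Of the other 2 of the 48 members, Cyp2b10 holds it in a shorter annotated transcript and for Cyp2s1 these residues were not found in this order. The 30 bases, read 5′ to 3′, are shown for the highest member of each subfamily with a gene above the low-count mark. For Cyp2b they are those of Cyp2b9, and none are shown for Cyp2s. Nearly all members hold the stretch, but other genes with a Cyp symbol do too, so it is not particular to family 2. Capitals mark the codons of the phenylalanine, the first glycine, the haem-binding cysteine and the last glycine.

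Cyp2e1: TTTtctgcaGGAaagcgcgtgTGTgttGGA

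Cyp2f2: TTTtcggctGGAcgtcgactgTGTctgGGA

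Cyp2d26: TTCtcagcaGGCcgcagatcaTGCctgGGG

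Cyp2a5: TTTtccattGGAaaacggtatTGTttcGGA

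Cyp2c50: TTCtcaacaGGAaaacggataTGTgcaGGA

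Cyp2j5: TTCtcaatgGGAaaaagagctTGTcttGGA

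Cyp2r1: TTTtctctaGGGagaagacatTGTcttGGA

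Cyp2b9: TTCtccacaGGAaagcgcattTGTcttGGT

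Cyp2u1: TTTgggataGGGaagcgggtgTGTatgGGA

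Cyp2g1: TTTtcctctGGAaagcgcatcTGCgttGGG

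The stretch alone does not tell all members apart, since Cyp2d9 and Cyp2d22 carry the same 30 bases as Cyp2d26, and Cyp2a4 the same as Cyp2a5. It begins at codon 430 in Cyp2e1, 429 in Cyp2f2, 439 in Cyp2d26, 432 in Cyp2a5, 428 in Cyp2c50, 440 in Cyp2j5, 441 in Cyp2r1, 429 in Cyp2b9, 469 in Cyp2u1 and 432 in Cyp2g1. Cyp2u1, a fatty acid hydroxylase, thus has the longest part before it of these 10 genes.

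The tissue label was checked first. All 7 hepatocyte markers were above the table's mark of 10 mean normalised counts, from 8807 counts per kb for Asgr1 to 920387 for Alb. Markers of the other cells of the organ were measured at lower levels per kb. The 6 Kupffer cell markers ranged from 79.6 to 1166 and the 6 endothelial markers from 70.1 to 372. The 5 stellate markers ranged from 35.9 to 712 and the 5 cholangiocyte markers from 3.66 to 710. The 5 leukocyte and blood markers ranged from 0 to 79.4. Hbb-bs, a globin gene, was listed at 0, which by itself does not show that blood RNA was absent. Of 4 genes typical of other organs that express Cyp2 genes, Scgb1a1 of the airway was listed at 0 and Umod of the kidney stood at 0.117 and Omp of olfactory neurons at 1.58 counts per kb. The remaining gene, Fabp2 of the intestine, stood at 3169.

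Of the 49 members, 39 (79.6%) were above the mark of 10, against 12971 (53.1%) of all genes. A further 5 members were detected below the mark, and 5 were listed at 0, namely Cyp2b23, Cyp2j12, Cyp2j13, Cyp2t4 and Cyp2w1. The family made up 0.201% of the genes and 2.22% of the summed mean normalised counts of 30045982, or 1.29% without the 10 highest genes of the table, of which Cyp2e1 is one. Among the members above the mark with a known exon length, the median was 575 counts per kb, against 94.2 over all genes above the mark. The members spanned more than 4 orders of magnitude within that set, from 4.33 counts per kb for Cyp2d12 to 159597 for Cyp2e1.

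Cyp2e1, which oxidises ethanol, acetaminophen and other small molecules, stood apart from every other member. Its mean normalised count was 344411, rank 4 of all genes by count and rank 6 per kb, and its 159597 counts per kb were 8.63-fold above the next member, Cyp2f2. By mean normalised count, or per kb of the longest transcript or of the coding sequence, the next member was Cyp2d9. Cyp2e1 held 52.98% of the level per kb of the 48 members with a length. Of the summed counts of the table, Cyp2e1 made up 1.15% and the other members together 1.07%. The gene lies on chromosome 7 from 140763739 to 140774987 on the plus strand of mm10 and has no subfamily partner in the table.

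**Figure D1:**
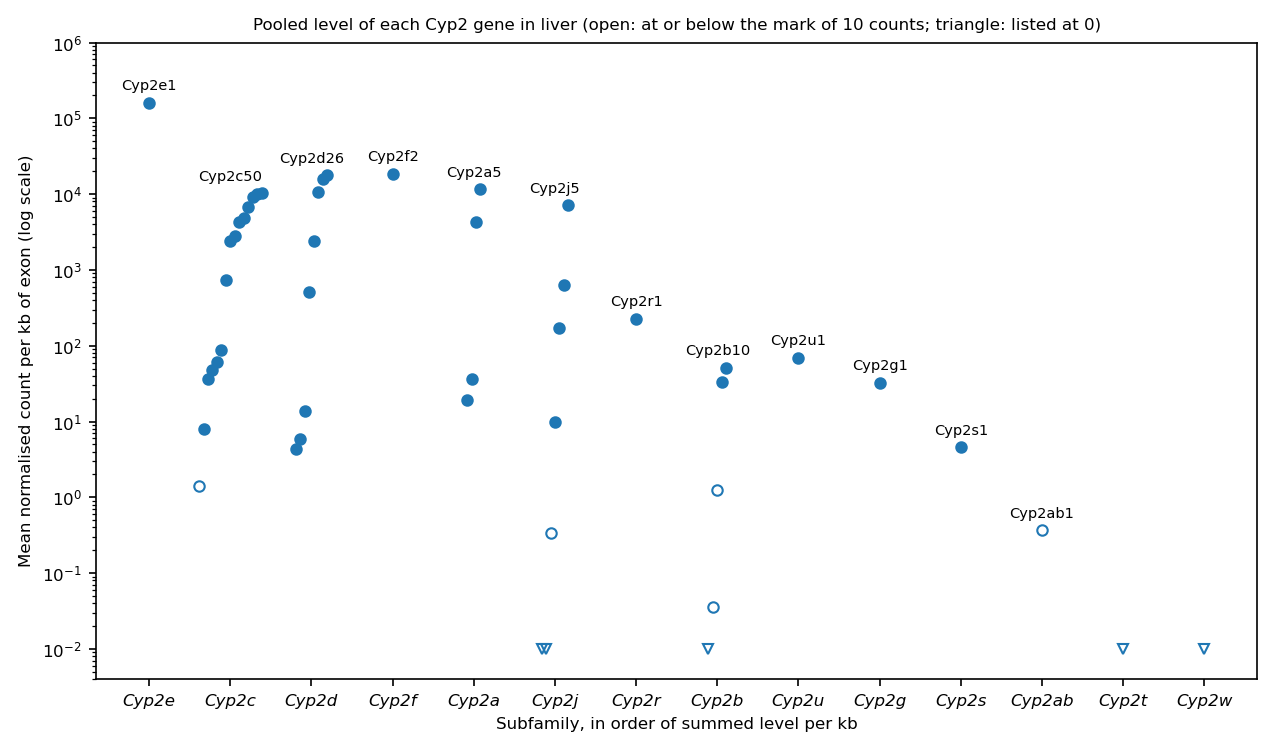
Mean normalised count per kb of exon (vertical axis, log scale) of 48 members, 1 point per gene, by subfamily in order of the summed level, with the highest gene of each named. Filled points lie above the mark of 10 mean normalised counts, open points lie below it, and triangles at the bottom are the 5 genes listed at 0. Cyp2e1, at 159597, lies above all others, and the Cyp2c, Cyp2d, Cyp2a and Cyp2j subfamilies each spread over more than 100-fold.

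After Cyp2e1 the levels fell in small steps. From Cyp2f2 (18489 counts per kb) in second place to Cyp2c68 (2414) in place 17, no member was more than 1.52-fold below the one before it. The first 17 members held 99.1% of the family's level per kb. Cyp2d13, at 3537 mean normalised counts, has no known exon length and is left out of this order and share. A step of 3.24-fold then separated Cyp2c68 from Cyp2c38 (745), the first of the remaining 21 members above the mark with a length, of which Cyp2d12 was the lowest.

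The Cyp2c subfamily was the most numerous, with 15 members of which 14 were above the mark, and it held 17.1% of the family's level per kb. Its enzymes hydroxylate drugs and turn arachidonic and linoleic acid into epoxides. No single gene dominated. The highest, Cyp2c50, stood at 10307 counts per kb of a subfamily sum of 51534, followed by Cyp2c37 (9971), Cyp2c29 (9225) and Cyp2c54 (6753). Cyp2c70, which makes the muricholic acids that distinguish mouse bile, stood at 4802, and Cyp2c44, an arachidonic acid epoxygenase listed as Cyp2c23 in the annotation, at 4273. Cyp2c67 and Cyp2c68 stood at 2803 and 2414, and Cyp2c38 at 745. The low end held Cyp2c39 (87.1), Cyp2c69 (61.5), Cyp2c40 (47.6), the inducible Cyp2c55 (36.0) and Cyp2c65 (8.06), while Cyp2c66, at 2.73 mean normalised counts, was below the mark.

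The Cyp2d subfamily, whose human counterpart metabolises many drugs, had 9 members and all were above the mark, with 15.7% of the family's level per kb. Its levels fell into a high and a low set. Cyp2d26 (17779 counts per kb), Cyp2d9 (15743) and Cyp2d10 (10823) were high, with Cyp2d22 (2419) and Cyp2d40 (514) next. Cyp2d11 (13.6), Cyp2d34 (5.89) and Cyp2d12 (4.33) were lower by a factor of more than 10 than any of these. By mean normalised count, or per kb of the longest transcript or of the coding sequence, Cyp2d9 was above Cyp2d26. The ninth member, Cyp2d13, had a mean normalised count of 3537 but no gene of that name in GENCODE M21, so no level per kb is given. RefSeq lists it as a transcribed pseudogene on chromosome 15, from 82636750 to 82642045.

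Cyp2f2, the only member of its subfamily and known for the activation of naphthalene, held 6.14% of the family's level per kb. The Cyp2a subfamily held 5.29% in 4 genes, all above the mark. Cyp2a5, the coumarin hydroxylase (11607 counts per kb), made up 72.8% of it and Cyp2a12 (4277) nearly all of the rest, while Cyp2a22 stood at 36.5 and Cyp2a4, a testosterone hydroxylase, at 19.2. The Cyp2j subfamily of arachidonic acid epoxygenases held 2.65% in 7 genes. Cyp2j5 (7174) made up 89.8% of it, Cyp2j6 (635) and Cyp2j9 (170) followed, Cyp2j8 (9.90) was just above the mark, Cyp2j11 was below it, and Cyp2j12 and Cyp2j13 were listed at 0.

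The remaining subfamilies together were a small share. Cyp2r1, which hydroxylates the side chain of vitamin D in its first activating step, stood at 226 counts per kb, and Cyp2u1 at 69.5. In the Cyp2b subfamily, known for induction through the constitutive androstane receptor, Cyp2b10 (50.8) and Cyp2b9 (32.8) were above the mark, Cyp2b13 (1.23) and Cyp2b19 (0.0359), the latter a gene of the epidermis, were below it, and Cyp2b23 was listed at 0. Cyp2g1, known from the olfactory mucosa, stood at 32.6, and Cyp2s1, known from epithelia, at 4.60. Cyp2ab1 (0.365) was below the mark, and Cyp2t4 and Cyp2w1 were listed at 0.

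Most members lie in 4 clusters, which were compared gene by gene along the map. The Cyp2c cluster on chromosome 19 (39007019 to 40187333) has 14 members, 7 on each strand, and Cyp2c44 lies apart from it. The cluster on chromosome 7 (25802475 to 27158668) mixes the Cyp2a, Cyp2b, Cyp2f, Cyp2g, Cyp2s and Cyp2t genes, 13 in all. Chromosome 15 (82370527 to 82794294) holds 8 Cyp2d genes with a GENCODE position, and chromosome 4 (96027534 to 96664154) all 7 Cyp2j genes, every one on the minus strand.

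Neighbours in a cluster often stood at very different levels. On chromosome 15, Cyp2d9 (15743 counts per kb) lies between Cyp2d10 (10823) and Cyp2d12 (4.33), the widest step between adjacent members there. On chromosome 7 the high genes, Cyp2a5, Cyp2a12 and Cyp2f2, lie at the right-hand end, with Cyp2a22 (36.5) between the first of them and the others, and Cyp2t4, the last member, at 0. On chromosome 19 the last 4 members in map order, Cyp2c37, Cyp2c54, Cyp2c50 and Cyp2c70, all stood at 4802 counts per kb or higher, and Cyp2c29 was the only other member of that cluster to do so. On chromosome 4 the level was 0 in the first 2 genes and highest in the last, Cyp2j5.

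**Figure D2:**
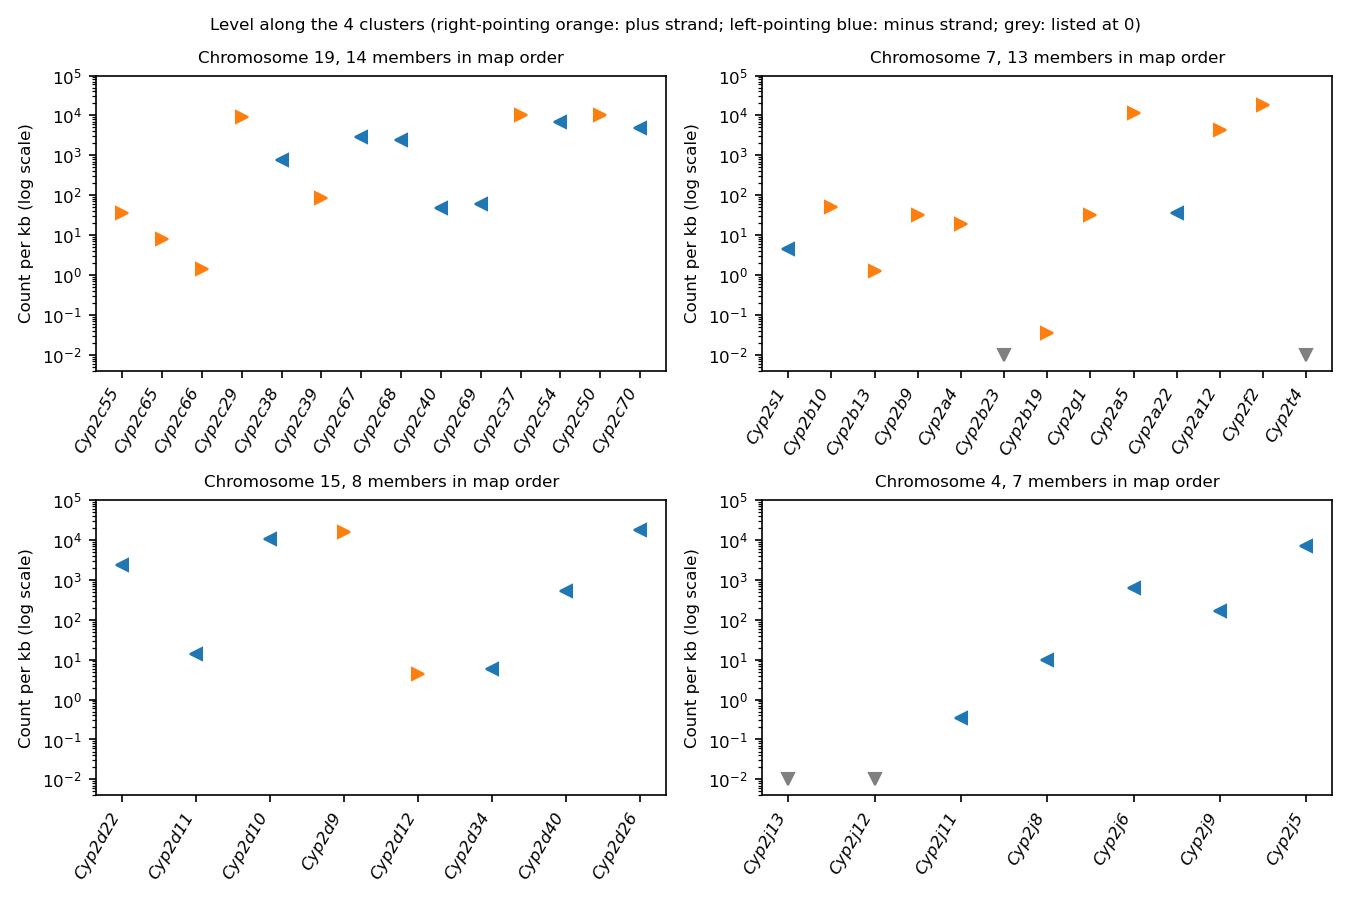
Mean normalised count per kb of exon (vertical axes, log scale) of the members of the 4 clusters in map order (horizontal axes, not to scale). Right-pointing orange symbols are genes on the plus strand, left-pointing blue symbols genes on the minus strand, and grey symbols genes listed at 0. The chromosome 4 panel runs from 0 at Cyp2j13 to 7174 at Cyp2j5, and in the chromosome 15 panel the neighbours Cyp2d10 and Cyp2d9 are high and the next pair, Cyp2d12 and Cyp2d34, low.

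How alike the members are was measured on their longest coding sequences, aligned in pairs. Over the 170 pairs within a subfamily the identity ranged from 55.7% to 98.4%, with a median of 76.6%, and over the 958 pairs between subfamilies from 37.2% to 63.9%, with a median of 52.1%. The lowest values of both kinds involved Cyp2d40, whose longest annotated coding sequence is 1014 bases, against 1512 in Cyp2d9. Within subfamilies the median was 86.0% for Cyp2b, 81.0% for Cyp2d, 77.9% for Cyp2j, 75.9% for Cyp2a and 75.2% for Cyp2c. The closest pair of different subfamilies was Cyp2a5 and Cyp2g1, at 63.9%.

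**Figure D3:**
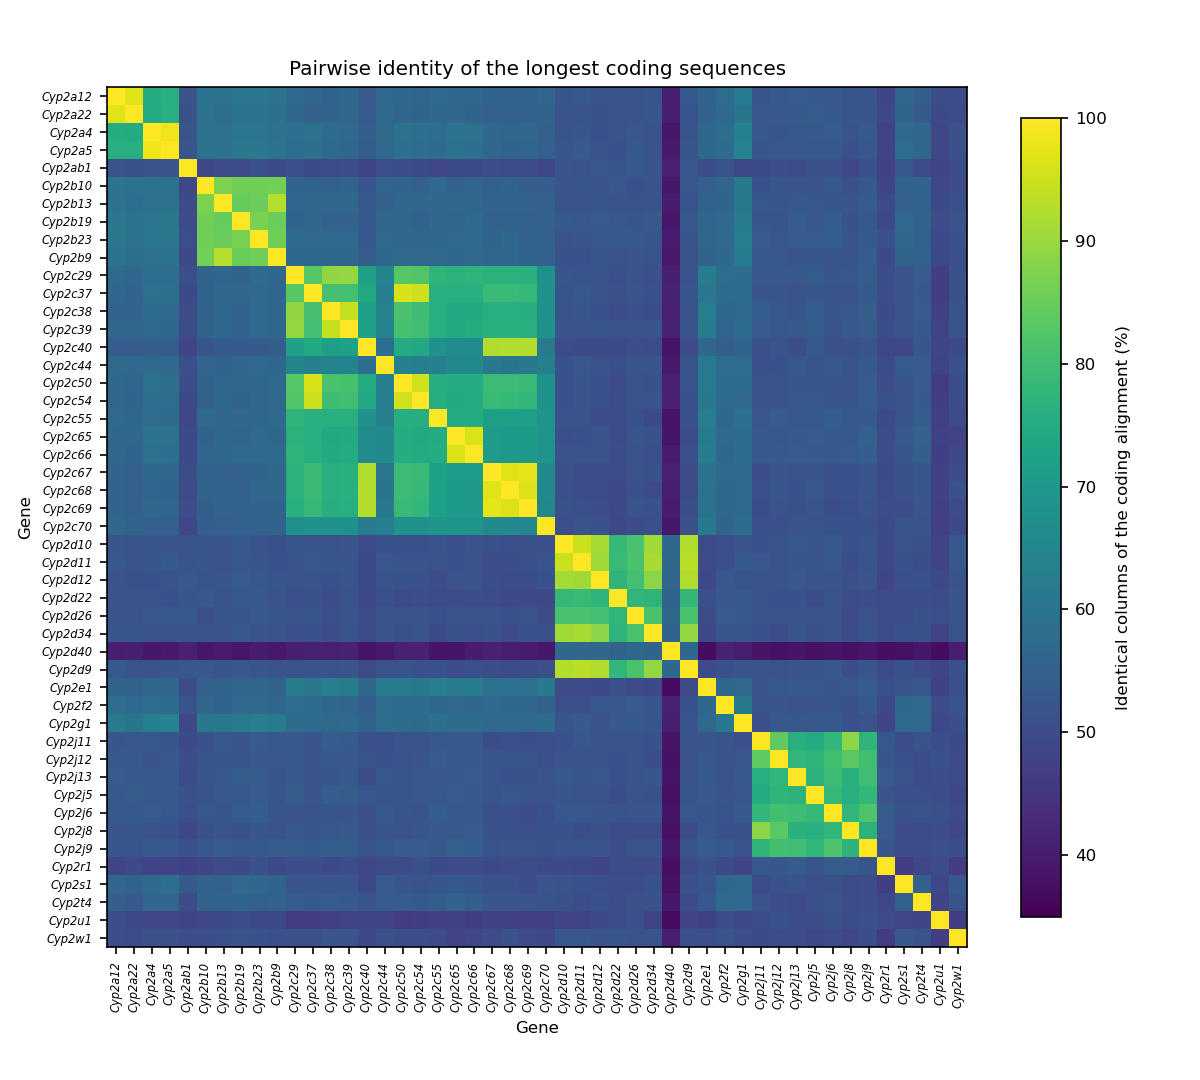
Percentage of identical columns in pairwise alignments of the longest coding sequences of 48 members (colour scale from 35% to 100%), genes in alphabetical order of subfamily on both axes. The subfamilies form blocks along the diagonal, and the dark row and column are Cyp2d40, whose annotated coding sequence is short.

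Close relatives did not always stand at like levels. Of the 22 pairs with over 90% identity, all within a subfamily, 12 differed by more than 10-fold in level per kb and 6 by less than 2-fold, and the median ratio of the higher to the lower was 32.9. The closest pair, Cyp2a4 and Cyp2a5, were 98.4% identical, with 23 differing columns of 1482, and Cyp2a5 was 604-fold higher. Cyp2d12 and Cyp2d9, at 92.1%, differed most, by 3633-fold. The mean of Cyp2d12 was 16.8 counts, near the mark of 10, and the ratio depends on the length used. Per kb of coding sequence, Cyp2d9 stood at 27675 and Cyp2d12 at 11.1. The 22 pairs also include Cyp2b13 and Cyp2c66, which were below the mark. Cyp2a12 was 117-fold above Cyp2a22 (97.0% identical), and Cyp2c67 was 45.6-fold above Cyp2c69 (97.7%). In contrast, Cyp2c37 and Cyp2c50 (96.1%) differed by 1.03-fold and Cyp2c67 and Cyp2c68 (97.1%) by 1.16-fold. The near-equal levels of Cyp2c37 and Cyp2c50 depend on the length used. Per kb of the longest transcript, Cyp2c50 stood at 16488 and Cyp2c37 at 9971. Pairs that share a gene are not independent of each other. How often less similar pairs of members differ as much was not computed. These counts therefore do not show whether close relatives differ more or less than other members.

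**Figure D4:**
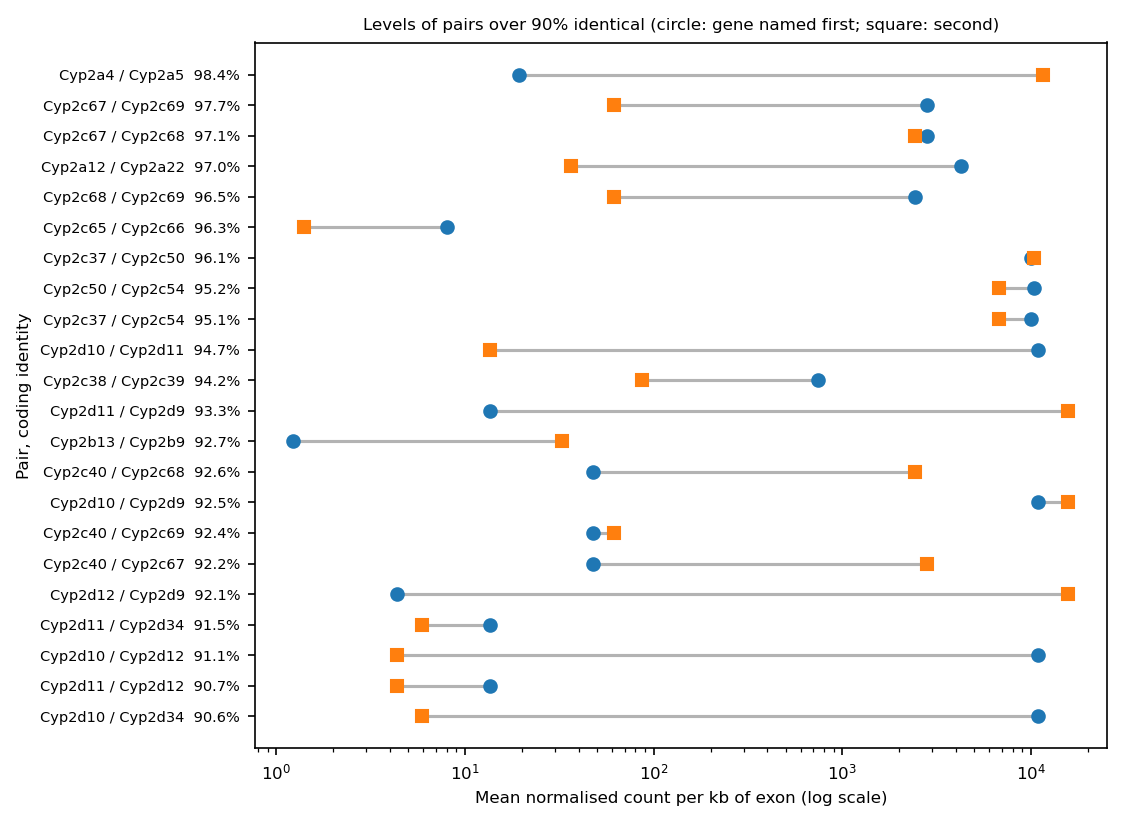
Mean normalised count per kb of exon (horizontal axis, log scale) of both genes of each of the 22 pairs with over 90% coding identity, ordered by identity, with circles for the gene named first and squares for the second. The Cyp2a4 and Cyp2a5 pair at the top spans 19.2 to 11607, while Cyp2c37 and Cyp2c50 lie side by side at 9971 and 10307.

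The stretch of 75 bases, the length of 1 read, in which the coding sequences of Cyp2a4 and Cyp2a5 differ most is shown. It tells how far apart reads within the coding sequences of this pair can be. The untranslated parts were not aligned. It runs from coding base 595 to 669 in both genes, 5′ to 3′, and capitals mark the 5 columns that differ.

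Cyp2a4: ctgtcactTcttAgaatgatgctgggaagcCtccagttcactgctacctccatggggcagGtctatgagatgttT

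Cyp2a5: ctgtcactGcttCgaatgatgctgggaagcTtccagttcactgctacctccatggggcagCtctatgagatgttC

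Elsewhere the 2 coding sequences are identical over runs of up to 216 bases, in which no read of 75 bases distinguishes them. The same was asked of every member by cutting its annotated transcripts into all windows of 75 bases and looking for each in the transcripts of all other genes, on both strands. Of 48 members, 14 had no shared window, among them all 7 Cyp2j genes, Cyp2c70, Cyp2c44 and Cyp2r1. The median member had 2.87% of its windows in another gene, and 15 had over 10%. These 15 held 23.0% of the family's mean normalised counts.

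Sharing was greatest among 4 neighbouring Cyp2c genes. Cyp2c40 shared 45.9% of its windows with another gene, Cyp2c69 42.6%, Cyp2c67 36.0% and Cyp2c68 28.5%, and their partners were each other. Cyp2a5 (22.3%) and Cyp2a4 (22.1%) shared windows with each other and with the pseudogene Cyp2a21-ps, and Cyp2d10 (22.3%) and Cyp2d11 (21.9%) mainly with each other. Cyp2c54, Cyp2c37 and Cyp2c50 shared 14.1%, 13.8% and 10.4%. How the authors' counting treated reads that fit several genes is not given in the sources used here, so single levels of these genes, above all those of the low member of a pair, are uncertain. With each mean divided by the windows found in no other gene instead of by exon length, Cyp2a5 was 543-fold above Cyp2a4. The numbers of close pairs over 10-fold and under 2-fold were again 12 and 6. This setting changes only the divisor, and the counts still include any reads placed on the wrong gene. Whether the low member's counts came from reads of its close relative was therefore not tested.

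**Figure D5:**
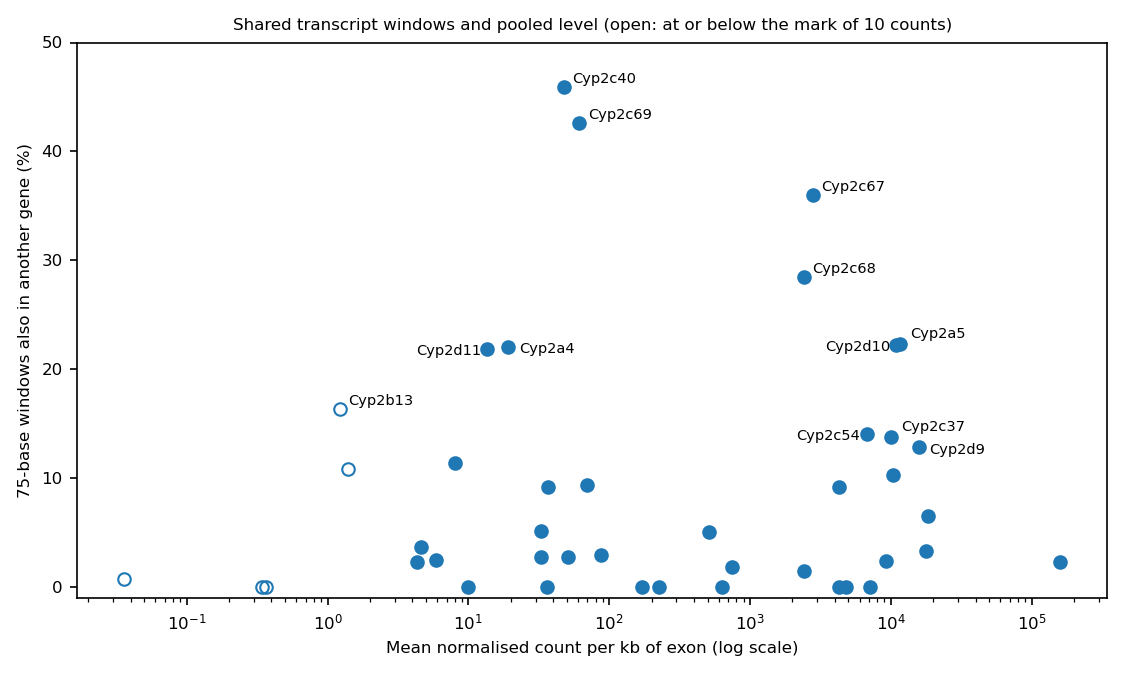
Percentage of 75-base transcript windows of each member that also occur in another gene (vertical axis) against the mean normalised count per kb of exon (horizontal axis, log scale), for the 43 members with a level above 0 and a length; open points lie below the mark of 10 mean normalised counts. Cyp2c40 and Cyp2c69 lie highest, at 45.9% and 42.6%, with levels of 47.6 and 61.5, and Cyp2e1, at the far right, lies at 2.34%.

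Exons of some members also overlap those of another gene, and the largest overlaps are given here. Their effect on the counts was not tested. Cyp2f2 shares 274 exon bases (13.5%) with Gm15883 and Cyp2u1 shares 548 (10.5%) with 4930534D22Rik, both antisense genes on the other strand. Cyp2s1 shares 260 with the noncoding Gm26707, also on the other strand. Cyp2d9 shares 186 bases with the pseudogene Gm46501 and Cyp2c29 shares 142 with Cyp2c53-ps, in both cases on the same strand. Whether reads were counted by strand is not given in the sources used here.

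Members known for a zone or a sex were then read by group. All 6 genes listed as pericentral, expressed around the central vein (Cyp2e1, Cyp2a5, Cyp2c50, Cyp2c37, Cyp2c29 and Cyp2c54), stood at 6753 counts per kb or higher, with a median of 10139. The periportal gene Cyp2f2 stood at 18489. Bulk liver holds all zones, and these values do not place RNA in one. Cyp2d9, a testosterone hydroxylase known to be higher in male mouse liver, stood at 15743. The 6 genes known to be higher in females (Cyp2a4, Cyp2b9, Cyp2b13, Cyp2c39, Cyp2c40 and Cyp2c69) ranged from 1.23 to 87.1 with a median of 40.2, and 5 of them were above the mark. Of these 6, Cyp2a4, Cyp2b13, Cyp2c40 and Cyp2c69 were among the 15 genes with over 10% shared windows. The inducible Cyp2b10 and Cyp2c55, at 50.8 and 36.0, lay in the same range.

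The partners of the family were measured on the same scale. The electron donors and their accessory genes, 5 of 5 above the mark, ranged from 1926 to 22883 counts per kb. Por, the reductase that passes electrons to all microsomal P450 enzymes, stood at 6392, below 11 members, and cytochrome b5, Cyb5a, at 9733. Pgrmc1, a haem-binding partner, stood at 22883, above every member except Cyp2e1. Of the 8 haem synthesis genes, Alas1, the rate-limiting enzyme, was highest at 4662, and Alad (1619) and Cpox (1134) followed, while the lowest was Ppox at 122.

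All 17 transcription factors and receptors chosen as regulators of P450 genes were above the mark, from 42.5 to 5048 counts per kb with a median of 346. Hnf4a, the hepatocyte factor, was highest (5048), followed by Cebpa (3670), Rxra (3014), Ppara (2543) and Cebpb (2467). The xenobiotic receptors Nr1i3, the constitutive androstane receptor, and Nr1i2, the pregnane X receptor, stood at 1516 and 1085, both far above their known target Cyp2b10. Of the factors linked to sex-biased expression, Stat5b stood at 358 and Bcl6 at 104, and Cux2, known to be higher in female liver, was the lowest of the list at 42.5.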

How the data were processed

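Liver mRNA from 3 WT and 3 Pai-1+/- animals was sequenced by the authors in single-end reads of 75 bases, which were aligned to mm10 with STAR and passed to DESeq2 in RNA Express on BaseSpace. The submitters' processing notes also name HOMER. Versions, annotation, filters and strand setting are not given in the sources used here.

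The only deposited signal used is a per-gene average, made by the authors over the libraries after scaling the counts by DESeq2 size factors. The fold changes, standard errors, test statistics and p-values in the same table are the authors' own comparison and were not used. The 6 library columns of the count table, headed by animal numbers found in no label, were left out, and the planned test of the genotypes on counts was therefore not run. The table's mark for low genes equalled a mean of 10 or less when checked.

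Gene models (positions, exon unions, transcripts and coding sequences) were those of GENCODE M21, which uses GRCm38, the same assembly as mm10. Of the members, 48 of 49 members matched, 1 through a RefSeq synonym, and 98.3% of all genes had a length. Coding sequences were aligned globally in Biopython 1.88 (match 1, mismatch -1, gap opening -5, extension -0.5). The window search was tested on simulated sequences. No protein table was used. Python 3.11.15, NumPy 2.4.6, pandas 2.3.3 and Matplotlib 3.10.9 were used. The genes named are the 3 highest of each subfamily, single-member subfamilies and the members of the lists. Other members were named after their values were seen, so that all 49 are accounted for. The members and lists were chosen with earlier results of these data known.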

Additional observations from a re-analysis of the deposited data

How the results depend on the processing

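The share of Cyp2e1 in the family's level per kb, 52.98% with the union of exons, was 53.7% with the longest transcript, 52.1% with the coding length, 51.7% with no length and 50.7% with windows found in no other gene, the last chosen after seeing the data. None of these moved any of the 38 members above the mark with a length by more than 4 places, but the order near the top changed. Cyp2d9, in place 4 with the union of exons, was in place 2 with the longest transcript, the coding length or no length. With windows found in no other gene, Cyp2c37 was in place 7 and Cyp2c50 in place 8, the reverse of their order with the union of exons. The family's share of all counts fell from 2.22% to 1.29% without the 10 highest genes of the table, which include Cyp2e1. The number of members above the mark was 28 at a mean over 100 and 42 at a mean over 1, against 39. Members with over 10% shared windows numbered 21 with windows of 50 bases and 13 when only other members were searched, against 15. No paired analysis was possible because the count columns carry no replicate number or genotype. For the same reason the count test of the genotypes was not run in any form, whether with another tool, without a filter or without each mouse. The spread of a level across mice was not computed, since the columns of single libraries, which match no sample label, were left out.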
